A study of Mus musculus with 8 samples.

Results

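The Rab genes encode small GTPases of vesicle traffic, and were examined in CD8 T cells that flow sorting took from peripheral lymph nodes. The mice were of the BALB/c strain and 12 days old. Genes were taken by name alone, as every listed gene whose mouse symbol is Rab followed by digits and an optional letter. This gave 44 of the 11723 genes listed, and all 44 passed the filter on low values, which asked for a value of at least 1 in at least 4 of 8 libraries. RefSeq holds 59 mouse symbols of this form. The other 15 (Rab3b, Rab3c, Rab6b, Rab9b, Rab13, Rab15, Rab17, Rab26, Rab27b, Rab30, Rab34, Rab36, Rab38, Rab40b and Rab42) were not analysed here.

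Of the 8 libraries, 4 came from wild-type mice (WT) and 4 from mice of the same strain and age without interleukin-2 (IL-2-KO), a T cell growth factor whose loss leads to autoimmune disease. Cell input, in M (1e6 cells), was 115, 28.7, 1.3 and 1.3 for the WT libraries, which pooled 5, 5, 3 and 2 mice, and 26.7, 42.6, 1.1 and 0.4 for the IL-2-KO libraries, for which pooling is not stated. The series text also allows heterozygous mice among the controls and spleen as a source, so the groups are named here as the sample labels name them. Values are TMM-scaled counts per 1e6 (CPM), and 1 CPM rested on between 11.9 and 18.6 counts. Il2 itself read 5.88 ± 0.268 CPM in WT and 6.28 ± 1.92 CPM in IL-2-KO (SD, n = 4). A total over the whole gene does not resolve the deleted part and is no check of the genotype.

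Rab proteins are switches. Bound to GTP and held in a membrane by lipid groups on cysteines near their C-terminus, they recruit motors, tethers and fusion proteins. Exchange factors load them with GTP, GTPase-activating proteins turn them off, and GDP dissociation inhibitors take the inactive form back to the cytosol. Each compartment carries its own Rabs, and in cytotoxic T cells Rab27a is needed for lytic granules to dock at the plasma membrane. Its loss causes the immune defect of Griscelli syndrome in humans.

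The nucleotide-binding core is what the family shares. In coding sequences of the GENCODE M21 annotation of GRCm38, the phosphate-binding loop was found in 43 of 44 genes and the commonest form of the G3 stretch, which senses the bound nucleotide, in 36. A cysteine stood among the last 4 residues in 44, and 33 had 2 of them there. Predicted proteins ran from 194 to 725 residues with a median of 215, and Rab44 was the longest. The G3 codons of the 7 genes that passed the test below are set beside those of Rab8a, the near paralogue of Rab8b, to show that the stretch encodes the same residues through different codons. Capitals mark bases unlike Rab8b.
Rab8b: tgggacacggcgggccaggaa
Rab8a: tgggacacggcCggccaggaG
Rab27a: tgggacacggcgggGcaggaG
Rab4a: tgggacacggcCggccaggaG
Rab19: tgggacacggcAggccaggaG
Rab43: tgggacacAgcTggccaggaG
Rab12: tgggacacAgcAggGcaggaG
Rab39b: tgggaTacAgcgggTcaAgaG
Rab39b differs from Rab8b at 5 bases of this stretch and Rab27a at 2. Across whole coding sequences, near paralogues shared from 63.9% (Rab7 with Rab7b) to 77.9% (Rab8a with Rab8b) of bases, and the longest identical run was 38 bases, between Rab1a and Rab1b.

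Both promoters shown next belong to the genes with the largest rises. They are the 250 bases before the start in RefSeq, build GRCm38.p6, printed on the gene's strand. Motifs were searched on both strands, and none of the matches overlap each other. In Rab19, at chr6:39381103-39381352 on the plus strand, capitals mark a STAT match (TTCNNNGAA) and an IRF match (AANNGAAA, read on the other strand). In Rab39b, at chrX:75578232-75578481 on the minus strand, they mark 3 matches to TATAAA, read on the other strand. In GENCODE M21 Rab19 starts at chr6:39381175, inside the stretch shown. The STAT match of Rab19 lies before that start, and its IRF match lies after it, within the gene.
Rab19: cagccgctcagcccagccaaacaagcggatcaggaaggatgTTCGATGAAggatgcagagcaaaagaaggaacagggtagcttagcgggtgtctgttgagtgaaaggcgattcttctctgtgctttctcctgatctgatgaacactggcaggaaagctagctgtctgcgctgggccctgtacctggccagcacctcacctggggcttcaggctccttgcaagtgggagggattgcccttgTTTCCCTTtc
Rab39b: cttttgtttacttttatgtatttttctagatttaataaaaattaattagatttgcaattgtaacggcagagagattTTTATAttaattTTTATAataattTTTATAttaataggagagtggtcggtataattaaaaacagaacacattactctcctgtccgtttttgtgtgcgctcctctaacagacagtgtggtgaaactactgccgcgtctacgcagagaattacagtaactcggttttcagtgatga
The STAT letters stood in 7.18% of 27025 promoters and in 3 of the 38 Rab promoters in the table (Rab11a, Rab19 and Rab25). The IRF letters stood in 21.6% of all and in 4 of the 38, and TATAAA stood in 13.0% of all and in 2 of the 38 (Rab39b and Rab7). These are matches of letters only.

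For most Rab genes no difference between the genotypes passed the test. By limma, with Benjamini-Hochberg adjustment over 11530 genes and a threshold of 0.05, 5 rose in IL-2-KO (Rab39b, Rab19, Rab8b, Rab43 and Rab27a), 2 fell (Rab4a and Rab12) and 37 did not pass. That is 15.9% called, against 19.2% of all genes tested. Rab39b was kept by the filter only through IL-2-KO, and among the 43 Rab genes that reached 1 CPM in both groups 6 were called (14.0%), against 18.7% of such genes. Higher calls made up 11.4% of the Rab genes against 11.1% of all genes, and lower calls 4.55% against 8.03%. The median log2 change was 0.03 against -0.01 over all genes. It turned to -0.02 without WT replicate 1, to -0.0091 with both libraries of high Lyz2 (described below) left out, and to -0.0027 with quantile normalization. In the reported fit the median size of change was 0.15 log2 against 0.19. Only Rab39b changed by at least 2-fold (2.27% of the Rab genes), a size that 5.12% of all genes reached. The groups did not overlap for 10 Rab genes, or 22.7% against 24.2% of all genes. The half-width of the 95% confidence interval, which is not adjusted for the number of genes, was 0.24 log2 at the median. Smaller changes were often not detectable, and larger ones could also miss the threshold, as Rab1b did (log2 0.32, limma adjusted p = 0.0530).

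Within the 4 libraries of over 20 M cells, and within the 4 of under 2 M, limma called 0 Rab genes (4 higher and 2 lower, and 4 higher and 3 lower, at an unadjusted p under 0.05), where 3.33% and 3.82% of all genes passed. All 7 called genes kept their direction in both, but this was fixed in advance, since their groups do not overlap over the 8 libraries. With array weights 9 rose and 7 fell, while 37.8% of all genes passed. Without WT replicate 2 alone 4 rose and 4 fell (Rab12, Rab2b, Rab3d and Rab4a), while 19.0% of all genes passed.

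**Figure D1:**
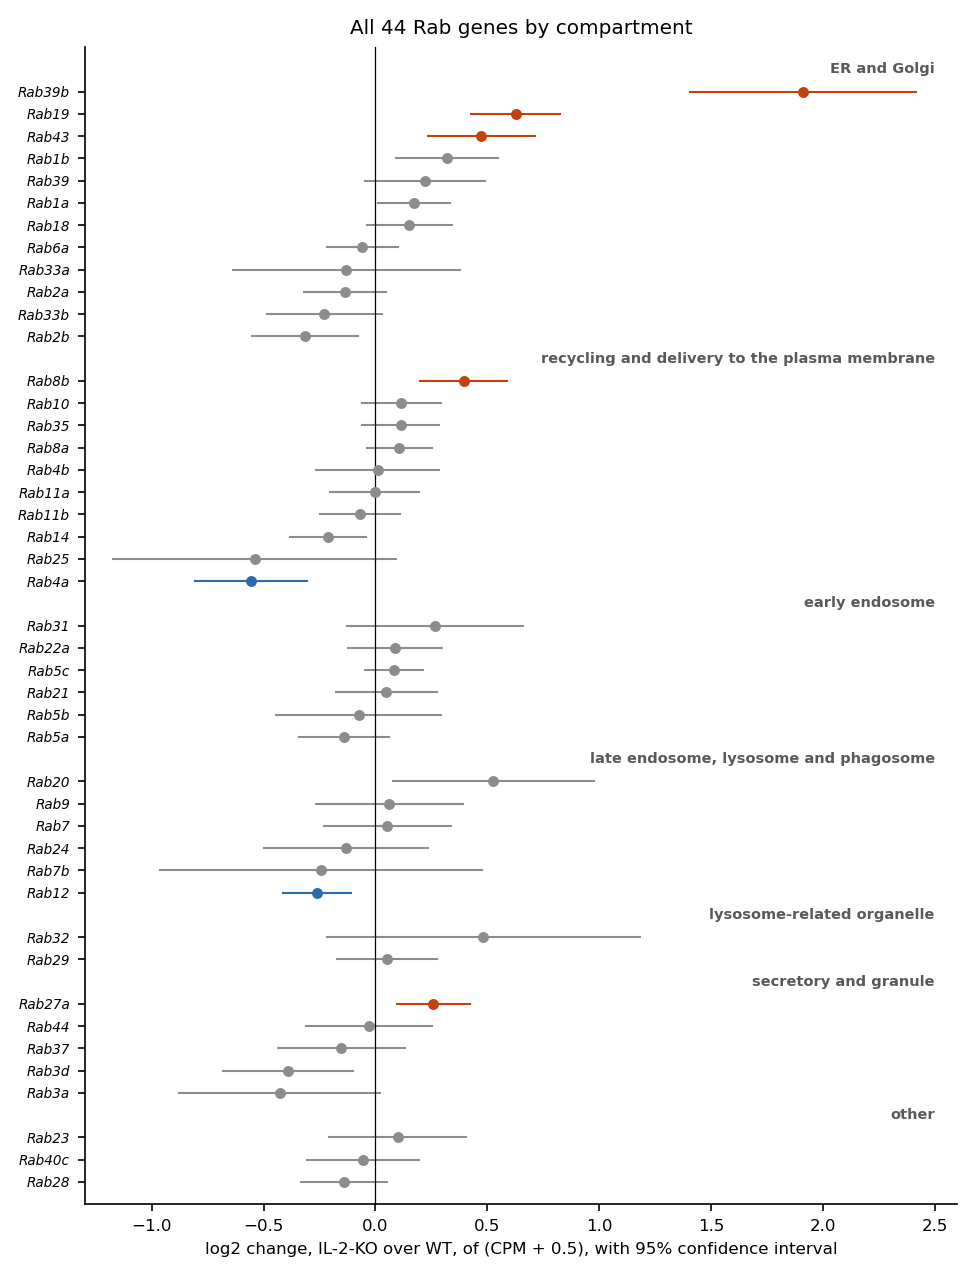
Log2 change of CPM + 0.5 (IL-2-KO over WT, horizontal axis) for the 44 Rab genes, by compartment, with the limma estimate as a point and its 95% confidence interval as a line. The 5 genes that rose are orange, the 2 that fell are blue and the 37 that did not pass are grey; Rab39b stands alone at 1.91.

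The summed Rab value was 2981 to 3074 CPM in WT and 3138 to 3204 CPM in IL-2-KO, between 0.301% and 0.324% of all listed values. The sums did not overlap between groups, and their difference was not tested. Levels per kb of exon kept nearly the same order, with a Spearman rho of 0.99 between the group means over 44 genes, a description across genes of the same libraries. The most abundant in WT were Rab5c at 93.2 ± 2.36 CPM per kb, an early endosome Rab, Rab4b at 78.3 ± 2.75, a Rab of fast recycling, and Rab14 at 63.2 ± 3.401. Rab1b, which acts between endoplasmic reticulum and Golgi, followed at 62.0 ± 7.67 CPM per kb, and Rab8a, which carries cargo to the plasma membrane, at 57.4 ± 3.25 (all SD, n = 4). From Rab14 to Rab8a, neighbours in this order differ by less than the SD of Rab1b. The lowest were Rab39b at 0.059 CPM per kb, Rab7b at 0.798 and Rab20 at 1.28.

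**Figure D2:**
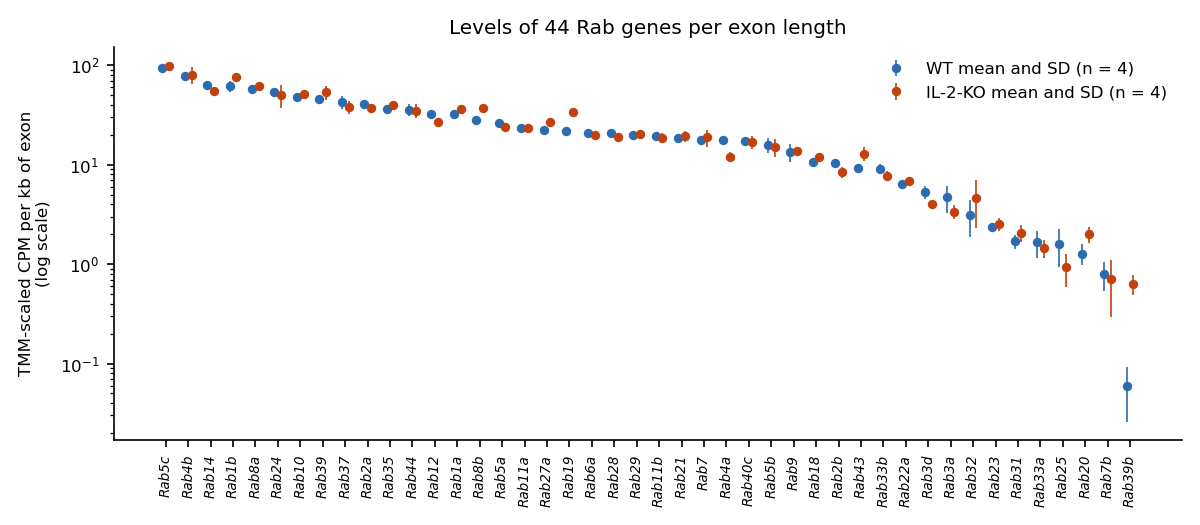
Level of each Rab gene in CPM per kb of exon (log axis, mean and SD of 4 libraries), ordered by the WT mean, with WT in blue and IL-2-KO in orange. Rab5c is highest in both groups (93.2 CPM per kb in WT) and Rab39b lowest, and most pairs of points touch.

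In these libraries, 2 stand apart. WT replicate 2 and IL-2-KO replicate 3 read Lyz2, a lysozyme of myeloid cells, at 40.0 and 296 CPM, against 0.230 to 2.85 CPM in the other 6. Cd4 read 38.6 and 45.5 CPM in them, against 0.461 to 2.48 CPM elsewhere. Of 15 macrophage, monocyte and neutrophil markers 6 were listed, and their sum was 237 CPM in WT replicate 2 against 106 to 113 in the other WT libraries. In IL-2-KO replicate 3 it was 655 CPM, where its 3 fellow libraries gave 143 to 170. The 9 CD8 T cell markers summed to 7247 to 8083 CPM in WT and 6269 to 7255 in IL-2-KO, so the labelled cell type is present throughout. Their median log2 change was -0.13, and 1 of the 9 was called lower and 0 higher, against 8.03% and 11.1% of all genes. Without both libraries, 5 Rab genes rose (Rab19, Rab1b, Rab39b, Rab43 and Rab8b) and 3 fell (Rab12, Rab3d and Rab4a). In that setting 18.05% of all genes passed. Those that rose include Rab39b, which the filter kept only through IL-2-KO. In bulk libraries, fewer cells of a type and less RNA per cell cannot be told apart.

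Rabs of the endoplasmic reticulum and Golgi, which move newly made protein, were 12: 3 rose, 0 fell and 9 did not pass, with a median log2 change of 0.16. Of the 11 left without Rab39b 2 rose, where 11.1% of all genes tested were higher and 8.03% lower. The same shares stand beside the counts of the other compartments below. Rab39b (chrX:75572046-75578231, minus strand, GRCm38) is a Golgi and neuronal Rab mutated in human X-linked intellectual disability. It read 0.180, 0.337, 0.230 and 0.0603 CPM in WT replicates 1 to 4. In IL-2-KO it read 2.14, 1.75, 2.85 and 1.84 CPM, so the groups are far apart, although low in both. The WT values rest on 3, 4, 4 and 1 counts and the IL-2-KO values on 32, 29, 53 and 33.

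Rab39b rose by 1.91 ± 0.23 on the log2(CPM + 0.5) scale (SE; limma adjusted p = 3.73e-04, which is no support in itself, since the filter kept it only through IL-2-KO). That scale understates a gene so low: the change was 2.96 with a pseudocount of 0.1 and 0.91 with 2. The pooled counts, 12 in WT and 147 in IL-2-KO, give an 11.3-fold ratio with an exact 95% interval of 6.26 to 22.3 that covers counting error only. Among genes kept it had to differ, and its call, the ratio and the interval are given as a description. The antisense gene Gm15063 overlaps 634 of its exon bases and has no row here, and since no source used here states how the counting treated strand, reads of the pair cannot be told apart.

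Rab19, a Golgi Rab at chr6:39381175-39390380 on the plus strand, had the clearest change among well-read genes. Its values were 37.4, 31.5, 31.6 and 36.4 CPM in WT and 57.0, 49.7, 54.0 and 51.4 CPM in IL-2-KO. Every IL-2-KO library lies above every WT library, the nearest pair being 49.7 and 37.4 CPM. Rab19 rose 1.54-fold (log2 0.63 ± 0.09 SE, limma adjusted p = 0.00101). The log2 change was 0.62 within the 4 libraries of over 20 M cells and 0.63 within the 4 of under 2 M. Neither subset passed (limma adjusted p = 0.119 and 0.0739).

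Rab43 (chr6:87788853-87812164, minus strand), which acts in traffic to and within the Golgi and, in mouse dendritic cells, in cross-presentation, read 49.8, 46.5, 51.8 and 50.6 CPM in WT. In IL-2-KO it read 58.7, 67.4, 85.1 and 67.5 CPM, highest in replicate 3, one of the libraries with myeloid transcripts. The groups do not overlap, and Rab43 rose 1.39-fold (log2 0.47 ± 0.11 SE, limma adjusted p = 0.0129). Without both libraries that stand apart the log2 change was 0.34 (limma adjusted p = 0.0279). Gm45140, which has no row here, shares 4164 exon bases with Rab43 on the same strand, so its reads may be divided between them.

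The other 9 of this compartment did not pass. Nearest was Rab1b, with 140, 105, 120 and 133 CPM in WT and 151, 169, 137 and 162 CPM in IL-2-KO, which overlap (log2 0.32, limma adjusted p = 0.0530). Its near copy Rab1a read 91.5 ± 5.01 and 103 ± 6.52 CPM (SD, n = 4), and did not overlap between groups but missed the threshold (limma adjusted p = 0.128). Rab2b, of Golgi structure and retrograde traffic, read 30.5 ± 2.36 CPM in WT and 24.4 ± 2.83 in IL-2-KO (limma adjusted p = 0.0649), and overlaps Tox4 on the other strand. The rest were Rab2a, Rab6a, Rab18, Rab33a, Rab33b and Rab39, with log2 changes between -0.23 (Rab33b) and 0.22 (Rab39).

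**Figure D3:**
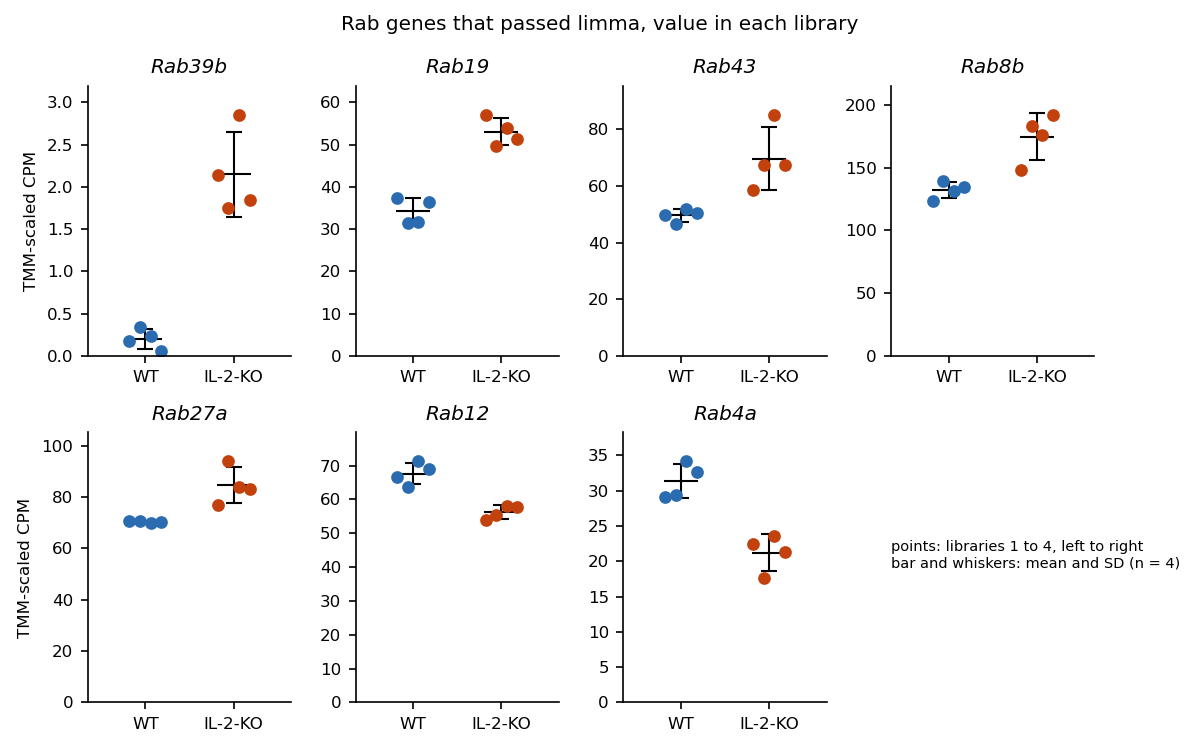
CPM in each library (vertical axis, from 0) for the 7 Rab genes that passed limma, with WT in blue, IL-2-KO in orange, replicates 1 to 4 from left to right, and the mean and SD of 4 as bars. In all 7 the groups are separate, by a wide gap in Rab39b and Rab19 and a narrow one in Rab8b, Rab27a, Rab12 and Rab43.

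Among Rabs of recycling and delivery to the plasma membrane, 1 of 10 rose (Rab8b), 1 fell (Rab4a) and 8 did not pass. Rab8b (chr9:66843664-66919687, minus strand), which delivers exocytic vesicles to the cell surface, read 124, 139, 132 and 135 CPM in WT. In IL-2-KO it read 148, 183, 176 and 192 CPM, and the lowest of these still lies above the highest WT value. The rise was 1.31-fold (log2 0.39 ± 0.09 SE, limma adjusted p = 0.0110). Rab8a, with 261, 244, 260 and 280 CPM in WT and 281, 292, 273 and 279 in IL-2-KO, overlapped and did not pass (log2 0.11, 95% interval -0.04 to 0.25). Rab8a held 67.2 ± 1.84% of the summed Rab8a and Rab8b level per kb in WT and 62.7 ± 2.63% in IL-2-KO (SD, n = 4). The exact two-sided permutation p was 0.0571 unadjusted and 0.210 after adjustment over 11 paralogue groups.

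Rab4a (chr8:123805985-123835287, plus strand), which returns receptors from early endosomes to the surface, gave the larger of both falls called. It read 29.2, 29.4, 34.2 and 32.7 CPM in WT and 22.5, 17.6, 23.6 and 21.4 CPM in IL-2-KO. No IL-2-KO library reached the lowest WT library. Rab4a fell by 0.56 on the log2 scale (SE 0.11, limma adjusted p = 0.00698), to 0.680 of WT. The fall was 0.55 among libraries of over 20 M cells and 0.56 among those of under 2 M.

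Its paralogue Rab4b was far more abundant and read 92.8, 98.1, 90.9 and 91.5 CPM in WT. In IL-2-KO it read 110, 83.3, 112 and 75.9 CPM, above all WT libraries in replicates 1 and 3 and below them in 2 and 4 (limma adjusted p = 0.967). Gm21983, with no row here, shares 1016 exon bases with Rab4b on the same strand. Rab4a held 18.6 ± 1.60% of the Rab4a and Rab4b level per kb in WT and 13.3 ± 1.82% in IL-2-KO (SD, n = 4). The exact two-sided permutation p of that difference was 0.0286, the smallest that 70 assignments allow, and 0.157 after adjustment over 11 paralogue groups.

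Across those 11 groups, 0 passed the adjusted permutation test, and 2 had an unadjusted p under 0.05, Rab4a with Rab4b and Rab39 with Rab39b. The latter restates the change of Rab39b, which the filter kept only through IL-2-KO. At least 7 groups would have to reach the smallest p for any to pass, so the design could hardly give a call. Rab39 held 99.9 ± 0.06% of the Rab39 and Rab39b level per kb in WT and 98.8 ± 0.12% in IL-2-KO (SD, n = 4), and it remains the main member. Rab3a, Rab7 and Rab33a differed least in their shares between the groups, by under 1 percentage point each.

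Rab11a and Rab11b, of the slow recycling endosome, did not pass. Rab11a read 51.1, 60.8, 54.4 and 52.4 CPM in WT and 55.0, 51.7, 61.2 and 50.3 in IL-2-KO, which overlap throughout (log2 0.00, 95% interval -0.20 to 0.19). Rab11b read 115, 126, 116 and 123 CPM in WT and 104, 119, 108 and 129 in IL-2-KO (log2 -0.07, 95% interval -0.25 to 0.11). Rab14, of traffic between Golgi and endosomes, read 195 ± 10.5 CPM in WT and 168 ± 13.1 in IL-2-KO, without overlap but short of the threshold (limma adjusted p = 0.0771). Rab10, Rab35 and Rab25 also did not pass, and Rab25, an epithelial Rab, was under 3 CPM in every library.

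The early endosome Rabs, which receive endocytosed cargo, gave 0 rises and 0 falls among 6, by limma, with log2 changes from -0.14 to 0.27. Rab5a, which is also on the granule secretion list, read 54.4, 67.8, 66.9 and 59.4 CPM in WT and 55.1, 52.0, 58.0 and 59.5 in IL-2-KO. The groups overlap (log2 -0.14, 95% interval -0.34 to 0.06). Rab5c, the most abundant Rab per kb, read 184 ± 4.64 and 194 ± 4.74 CPM (SD, n = 4; log2 0.08, 95% interval -0.05 to 0.21). Rab5b read 52.1, 38.5, 50.7 and 58.9 CPM in WT and 39.9, 56.6, 38.2 and 56.3 in IL-2-KO, with a wide spread in both. Rab21, Rab22a and Rab31 did not pass.

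Among 6 Rabs of late endosome, lysosome and phagosome, 1 fell and 5 did not pass. Rab12 (chr17:66494512-66519729, minus strand), which sends transferrin receptor to lysosomes and is a substrate of the kinase Lrrk2, read 66.7, 63.7, 71.2 and 68.9 CPM in WT. In IL-2-KO it read 53.9, 55.4, 58.0 and 57.7 CPM, all below WT. The fall was 0.26 on the log2 scale (SE 0.07, limma adjusted p = 0.0244). The call was lost in 8 of 22 alternatives, among them leaving out WT replicate 1, 3 or 4 or IL-2-KO replicate 1 or 2 (limma adjusted p from 0.0509 to 0.0901).

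Rab7, the main Rab of late endosomes and lysosomes, read 45.4, 46.7, 46.8 and 48.0 CPM in WT. In IL-2-KO it read 44.0, 56.5, 38.4 and 57.8 CPM, a wide spread around a tight WT group (log2 0.05, 95% interval -0.23 to 0.34). Rab24, an autophagy Rab, split the IL-2-KO libraries the other way, with 72.4 and 70.1 CPM in replicates 1 and 3 and 46.1 and 44.6 in 2 and 4, against 57.3 to 71.3 in WT. Prelid1, which overlaps 775 exon bases of Rab24 on the other strand, read 162 and 174 CPM in replicates 1 and 3 and 145 and 138 in 2 and 4, against 112 to 126 in WT. Whether reads of Prelid1 contribute to Rab24 was not tested. Rab20, of phagosomes, read 1.78 ± 0.426 and 2.77 ± 0.510 CPM (SD, n = 4, limma adjusted p = 0.0976), and Rab7b and Rab9 did not pass.

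Lysosome-related organelles, such as melanosomes and lytic granules, have Rab32 and Rab29 here, and neither passed. Rab32 read 5.69, 11.0, 4.95 and 5.55 CPM in WT and 7.70, 7.84, 17.4 and 6.76 in IL-2-KO. The high library of each group is the one with high Lyz2. The groups overlap (log2 0.48, limma adjusted p = 0.321), and without both of those libraries the log2 change was 0.43 (limma adjusted p = 0.0659). It was 0.72 without WT replicate 2 alone and 0.19 without IL-2-KO replicate 3 alone, and -0.03 and 0.99 within the libraries of over 20 M and under 2 M cells. The part of myeloid transcripts in the Rab32 value was not tested. Rab29 read 26.7 ± 2.10 CPM in WT and 27.7 ± 2.51 in IL-2-KO (SD, n = 4).

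**Figure D4:**
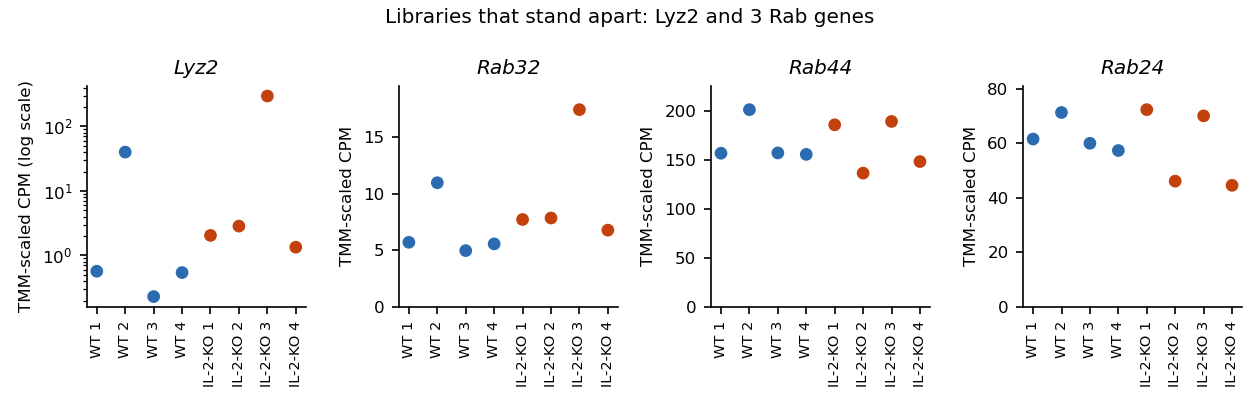
CPM in each of the 8 libraries for Lyz2 (log axis) and for Rab32, Rab44 and Rab24 (linear axes from 0), with WT in blue and IL-2-KO in orange. Rab32 is highest where Lyz2 is highest, at 11.0 CPM in WT replicate 2 and 17.4 in IL-2-KO replicate 3, and Rab44 is also highest of each group there, at 201 and 189 CPM. Rab24 and Rab44 are higher in IL-2-KO replicates 1 and 3 than in 2 and 4.

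The 5 secretory and granule Rabs gave 1 rise, Rab27a, and 4 that did not pass. Rab27a (chr9:73044854-73097629, plus strand) read 70.8, 70.8, 70.02 and 70.3 CPM in WT, a narrow range, and 77.0, 93.9, 84.1 and 83.4 CPM in IL-2-KO. All 4 IL-2-KO libraries lie above WT, and the rise was 1.20-fold (95% interval 1.07 to 1.34, limma adjusted p = 0.0348). The call did not hold in 13 of 22 alternatives, among them leaving out any library except IL-2-KO replicate 1 (limma adjusted p from 0.0519 to 0.0968). The log2 change was 0.26 within the libraries of over 20 M cells and 0.25 within those of under 2 M, and passed in neither (limma adjusted p = 0.541 and 0.253). Gm27186, with no row here, shares 149 exon bases with Rab27a on the same strand.

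Rab37, known from mast cell granules, read 142, 99.4, 115 and 125 CPM in WT and 128, 114, 91.3 and 99.4 in IL-2-KO. The groups overlap (log2 -0.15, 95% interval -0.44 to 0.13). Rab44, a large Rab of bone marrow-derived cells, read 157, 201, 157 and 156 CPM in WT and 186, 136, 189 and 148 in IL-2-KO. The highest library of each group, WT replicate 2 and IL-2-KO replicate 3, is again the one with high Lyz2, whose part in the Rab44 value was not tested. IL-2-KO replicate 1 read nearly as high, at 186 CPM, with Lyz2 at 2.04 CPM. The groups overlap (log2 -0.03, 95% interval -0.31 to 0.25).

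Both Rab3 genes, which serve regulated exocytosis, were low. Rab3d read 24.0, 17.2, 19.3 and 23.8 CPM in WT and 14.4, 16.8, 14.9 and 17.0 in IL-2-KO, where the highest library, at 17.05 CPM, is just below the lowest of WT, at 17.19. The log2 change was -0.39 (SE 0.13, limma adjusted p = 0.0620), and it passed in 6 of 22 alternatives, as without WT replicate 2 (log2 -0.48, limma adjusted p = 0.0243). Rab3a read 7.25, 12.3, 6.56 and 7.60 CPM in WT and 7.24, 5.12, 6.29 and 5.37 in IL-2-KO, and overlapped (log2 -0.43, limma adjusted p = 0.169). WT replicate 2, at 12.3 CPM, is the highest, and without it the log2 change was -0.24.

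Taking the Rabs linked to granule secretion as 1 list across compartments, 2 of 12 rose (Rab27a and Rab8b), 0 fell and 10 did not pass, with a median log2 change of -0.02. That is a share near the 11.1% of all genes that were higher, and the call of Rab27a was often lost as given above. Of 13 granule cargo genes 8 rose, 0 fell and the median log2 change was 0.40. Gzma, a granzyme protease, read 2.81, 5.48, 2.07 and 2.83 CPM in WT and 127, 99.6, 104 and 184 in IL-2-KO (log2 5.12, limma adjusted p = 1.07e-05). Gzmk rose from 0.277 ± 0.0865 to 31.5 ± 17.2 CPM and Gzmb from 0.750 ± 0.293 to 26.1 ± 19.8 CPM (SD, n = 4; limma adjusted p = 3.14e-05 and 1.10e-04). Like Fasl, both passed the filter through their IL-2-KO libraries and so had to differ, and their p-values and their place in the count add no support. The other 5 were Fasl, Gzmm, Lamp1, Lamp2 and Nkg7, with log2 changes of 2.38, 1.57, 0.29, 0.40 and 0.43. Of 6 natural killer cell markers 3 were listed (Klrb1c, Klre1 and Eomes), and Ncr1, Klra8 and Fcgr3 had no row. The listed 3 summed to 106 to 156 CPM in WT and 217 to 404 in IL-2-KO. What cells these come from, and their part in these rises, was not tested.

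In the granule fusion machinery, 1 of 22 genes rose and 2 fell, against 11.1% higher and 8.03% lower over all genes. Stx11, a syntaxin whose loss in humans blocks lytic granule release, read 1.56, 3.96, 1.21 and 1.27 CPM in WT and 14.3, 9.70, 28.7 and 10.3 in IL-2-KO. The highest value of each group is in the library with high Lyz2, yet all IL-2-KO libraries lie above WT. Stx11 rose by 2.69 ± 0.39 log2 (SE, limma adjusted p = 0.00105), and by 2.68 without both of those libraries. Stxbp3, a syntaxin-binding protein, fell from 75.2 ± 3.69 to 58.8 ± 3.98 CPM (SD, n = 4, limma adjusted p = 0.00955). Vamp2, a vesicle SNARE used by lytic granules in mouse cells, fell from 112 ± 7.06 to 91.0 ± 10.5 CPM (limma adjusted p = 0.0409). The groups overlap for Vamp2, and its call was lost in 12 of 22 alternatives, among them leaving out any library except IL-2-KO replicate 1 (limma adjusted p from 0.0571 to 0.124).

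Of 6 genes for prenylation and membrane cycling, 1 rose and 1 fell, against 11.1% higher and 8.03% lower over all genes. Gdi2, which extracts inactive Rabs from membranes, read 321, 345, 338 and 337 CPM in WT and 434, 432, 499 and 426 in IL-2-KO (log2 0.41 ± 0.07 SE, limma adjusted p = 0.00344). Rabac1, which releases Rabs from that inhibitor, read 70.1, 79.5, 68.9 and 72.7 CPM in WT and 55.5, 47.0, 51.6 and 50.6 in IL-2-KO. It fell by 0.50 log2 (SE 0.08, limma adjusted p = 0.00184). These groups are separate in both genes. Rabggtb, a subunit of the enzyme that attaches the lipid, read 112 ± 5.05 and 95.5 ± 11.5 CPM (SD, n = 4) and did not pass (limma adjusted p = 0.104).

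Of 45 exchange factor genes, 2 rose, 3 fell and 40 did not pass, against 11.1% higher and 8.03% lower over all genes. Their median log2 change was 0.01. Dennd5a, which in human cells acts on Rab39, rose from 27.2 ± 2.55 to 43.0 ± 7.10 CPM (SD, n = 4, limma adjusted p = 0.00671). Rab3ip, an exchange factor for Rab8, fell from 130 ± 18.7 to 93.5 ± 7.26 CPM (limma adjusted p = 0.0118). Madd, which serves Rab3 and Rab27, and Rin3, which serves Rab5, fell by 0.29 and 0.22 log2.

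Of 38 genes for GTPase-activating proteins, 3 rose, 2 fell and 33 did not pass, against 11.1% higher and 8.03% lower over all genes. Tbc1d16, which in human cells turns off Rab4a, read 21.0, 17.3, 19.3 and 22.3 CPM in WT and 7.37, 7.13, 7.77 and 10.2 in IL-2-KO. The groups are well apart, and Tbc1d16 fell by 1.25 log2 (SE 0.14, limma adjusted p = 2.94e-04). It also passed in both subsets of 4 libraries by cell number (limma adjusted p = 0.0179 and 0.0473). Tbc1d30, described for Rab8, rose from 2.07 ± 0.729 to 5.34 ± 0.689 CPM (SD, n = 4, limma adjusted p = 0.00509).

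Tbc1d4, which acts on Rab10 in insulin-responsive cells, read 6.90, 24.5, 6.11 and 6.06 CPM in WT and 28.9, 29.1, 52.9 and 31.4 in IL-2-KO. WT replicate 2 and IL-2-KO replicate 3 are the high libraries of their groups. Tbc1d4 rose by 1.88 log2 (limma adjusted p = 0.00942), and by 2.14 without both of them (limma adjusted p = 3.63e-05). Tbc1d2 rose by 0.81 log2 and Rab3gap1 fell by 0.30.

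Among the named pathway genes, Eea1, Tbc1d16, Stx11, Gzma, Gzmk and Gzmb passed in both subsets by cell number, and Tbc1d4 in that of under 2 M cells. Gzmk and Gzmb passed the filter, which was set on all 8 libraries, through IL-2-KO, so their passing here adds no support. Rabac1, Gdi2, Dennd5a, Rab3ip, Tbc1d30, Appl2, Sytl3, Stxbp3 and Vamp2 passed in neither, and the further genes named in these lists were not examined by subset.

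Of 40 Rab effectors and Rab kinases, 4 rose, 4 fell and 32 did not pass, against 11.1% higher and 8.03% lower over all genes. Their median log2 change was -0.07. Eea1, the tether through which Rab5 joins early endosomes, read 11.2, 12.4, 11.9 and 13.6 CPM in WT and 31.6, 37.6, 51.4 and 36.8 in IL-2-KO. Every IL-2-KO library is at more than 2 times the highest WT library. Eea1 rose by 1.62 ± 0.14 log2 (SE, limma adjusted p = 9.55e-05), while Rab5a, Rab5b and Rab5c did not pass. The rise was 1.51 log2 within libraries of over 20 M cells and 1.73 within those of under 2 M, and it passed in both.

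Appl2, another Rab5 effector, moved the other way, with 241, 218, 236 and 228 CPM in WT and 168, 145, 141 and 102 in IL-2-KO. It fell by 0.75 log2 (SE 0.13, limma adjusted p = 0.00319), without overlap. Sytl3, an effector that links Rab27a to granule transport, rose from 2.91 ± 1.20 to 9.66 ± 4.12 CPM (SD, n = 4, limma adjusted p = 0.00676). Sytl1, also a Rab27a effector, fell from 72.9 ± 4.59 to 51.8 ± 9.33 CPM (limma adjusted p = 0.0193). Rilpl2 and Lrrk1, a kinase of Rab7, rose by 1.02 and 1.67 log2, and Fyco1, a Rab7 effector of transport along microtubules, and Ocrl, a lipid phosphatase that binds Rabs, fell by 0.49 and 0.41.

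**Figure D5:**
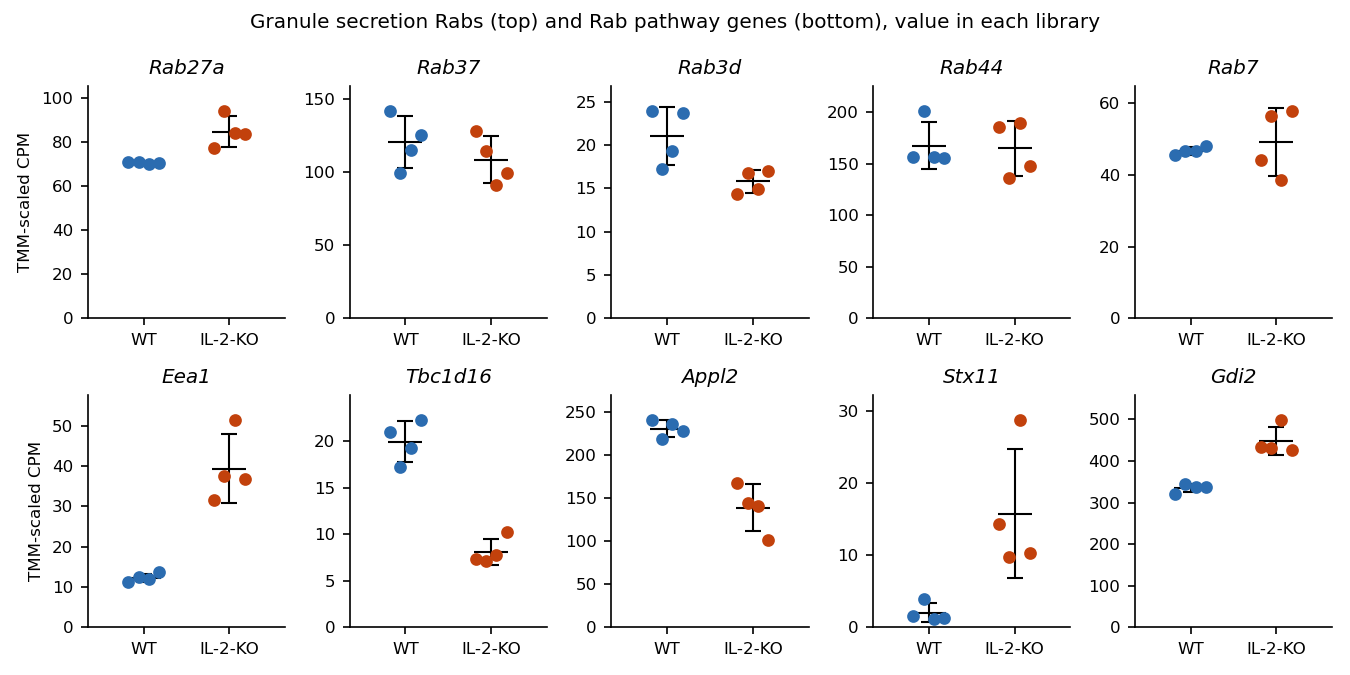
CPM in each library (vertical axis, from 0) for 5 granule secretion Rabs (top) and 5 genes that act with Rabs (bottom), with WT in blue, IL-2-KO in orange, replicates 1 to 4 from left to right, and the mean and SD of 4 as bars. The Rab37, Rab44 and Rab7 groups overlap, whereas Eea1 (11.2 to 13.6 against 31.6 to 51.4 CPM), Tbc1d16, Appl2, Stx11 and Gdi2 are separate.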

How the data were processed

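Each gene has 1 signal value in each library of the table deposited by the authors, whose title names it as TMM-scaled CPM. The scale is linear. Tools named in the submitters' processing notes are featureCounts, R 3.4.3 and limma 3.34.9, with the builds GRCm38 and mm10. The aligner and the strand setting were not given in the sources used here. The libraries held 11.9 to 18.4 M counts (M, 1e6) over the listed genes, recovered from the value steps. All low values were multiples of 0.01 read but 54.6% to 65.0% were whole, so no count test was run. Only the interval of the Rab39b ratio used counts, pooled over the libraries of each group. Entrez identifiers were matched to RefSeq symbols (11651 matched, 72 not), and exon lengths, overlaps and coding sequences came from GENCODE M21.

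Values were analysed as log2(value + 0.5) by the linear model of limma 3.58.1 (R 4.3.3), its moderated variances following a trend in the mean. P-values were adjusted by Benjamini-Hochberg over 11530 genes, and the threshold was 0.05. The script was tested on simulated data. CPM without TMM scaling had been assumed when the test was set; column sums above 1000000 showed the scaling, and the test was kept. Per-library values are given for Rab genes that passed and for Rabs of granule secretion, and each of 6 pathway lists is represented by the 3 genes with the smallest adjusted p, of which 1 is not reported here. Other genes given by value were chosen after their values were seen. The members and lists were chosen with earlier results of these data known. Paralogue shares were tested by exact permutation. The series text calls the samples biological replicates. The limma p-values set the difference between group means against the spread between libraries. That spread is not one between single mice, since WT libraries pool unequal numbers of mice and IL-2-KO pooling is not stated. Alternatives covered pseudocounts, filters, scalings, array weights, cell number, a replicate block and left-out libraries.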

Additional observations from a re-analysis of the deposited data

Results flagged for a closer look

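Of 124 groups of 4 libraries examined, 12 held a library far from its other 3, where chance gives about 6.2. WT replicate 2 or IL-2-KO replicate 3 was that library in 10 of the 12. Among Rab genes, Rab32 stood high in both, at 11.0 CPM against 4.95 to 5.69 in the other WT libraries and 17.4 CPM where IL-2-KO replicates 1, 2 and 4 read 6.76 to 7.84. Rab39 at 159 CPM and Rab44 at 201 CPM were high in WT replicate 2, where the other WT libraries read 126 to 129 and 156 to 157 CPM. Rab2a was high in IL-2-KO replicate 3, at 84.7 CPM against 76.5 to 77.4, and Rab10 low in WT replicate 1, at 157 CPM against 171 to 173.

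Among genes that act with Rabs, Tbc1d4 was high in both libraries, at 24.5 CPM in WT replicate 2 and 52.9 CPM in IL-2-KO replicate 3. Stx11 was high in WT replicate 2 at 3.96 CPM. Gdi2 at 499 CPM and Gzmb at 55.6 CPM were high in IL-2-KO replicate 3, and Stxbp3 was low in IL-2-KO replicate 4 at 52.8 CPM.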

How the results depend on the processing

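Over 22 alternatives and 35 named genes, 681 of 768 values kept their direction and their side of the threshold, 63 no longer passed, 9 newly passed and 15 changed sign. The filter was set on all 8 libraries and not reapplied when some were left out. Rab19, Rab8b, Rab43 and Rab4a passed with each library left out, and lost the call only in the subsets of 4 libraries by cell number; the filter at 5 leaves Rab39b untested.

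The counts below include Rab39b. The numbers of Rab genes that rose and fell were 5 and 2 as reported. They were 6 and 4 with quantile normalization (20.7% of all genes called) and 9 and 7 with array weights (37.8%). With GC content and exon length trends removed, an alternative chosen after seeing the data, they were 5 and 5 (23.4%). Within the 4 libraries of over 20 M cells limma called 0 and 0 (4 and 2 at an unadjusted p under 0.05), and within the 4 of under 2 M 0 and 0 (4 and 3). These subsets called 3.33% and 3.82% of all genes. Leaving out 1 library gave 4 to 5 that rose and 1 to 4 that fell, with 11.1% to 19.1% of all genes called. Only 1 fell without WT replicate 1, 3 or 4 or IL-2-KO replicate 1, and 4 fell without WT replicate 2. Of all calls 58.1% were higher as reported, and between 48.9% (quantile normalization) and 83.9% (libraries of over 20 M cells) in the alternatives. The causes were not tested.

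With a replicate block 4 rose and 1 fell, with 12.1% of all genes called, and the calls of Rab27a and Rab12 were lost. Same-numbered libraries correlated at 0.08, -0.53, -0.40 and 0.39 in their deviations from the group means. The strongest correlation, 0.66, joined the libraries of high Lyz2, which carry different numbers. Deviations within groups of 4 that include those libraries cannot decide whether equal numbers mark pairs.

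The sign changes were of 5 Rab genes that did not pass under any of these settings. Rab11a (as reported -0.0042 log2) read 0.0556 in libraries of under 2 M cells, -0.0609 to 0.0473 with 1 library left out, and 0.0057 with the GC and length trends removed. Rab44 read 0.0994 in libraries of under 2 M cells, -0.0998 to 0.0616 with 1 library left out, and 0.0018 with those trends removed. Rab7 read -0.0075 in libraries of under 2 M cells and -0.0306 to 0.164 with 1 library left out. In libraries of over 20 M cells Rab32 read -0.0260 (as reported 0.48) and Rab37 0.0253 (as reported -0.15). Low genes are limited by depth: Rab39b in WT rests on at most 4 counts a library.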
